A study of Mus musculus with 51 samples.

Results

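Gastrocnemius, a calf muscle of mainly fast fibres, was profiled in mice of 2 genotypes, all fed Regular chow. In Control (Bmal1fx/fx) animals both copies of Bmal1 are intact and flanked by recombination sites. In Bmal1KO animals the gene is deleted in skeletal muscle, per the series' design text. The comparison used 4 control and 3 knockout animals, 1 library each, which are 7 of the 51 libraries of the series and belong to batch 1 of the labels. Animals of the same genotypes on High-fat diet, 7 controls and 5 knockouts in batch 1 and 8 controls and 4 knockouts in batch 2, served for comparison. No source used here gives age, the time of day at harvest, what drives the deletion or which exons it removes. Whole muscle was extracted, so that fibres, vessels, nerve, fat and blood cells all contributed RNA. Levels are CPM, 3′ tag counts scaled to library size, with 1 tag standing for 1 transcript end, and series of values run from control 1 to 4 and from knockout 1 to 3.

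BMAL1, encoded by Arntl, pairs with CLOCK and binds E-box sequences to switch on the clock's own repressors (the period, cryptochrome, REV-ERB and DEC genes) and a layer of output regulators such as the PAR bZIP factors DBP, TEF and HLF. REV-ERB proteins in turn silence genes with ROR elements, among them Clock, Cry1 and Arntl itself, and DEC proteins compete for E-boxes. In muscle this clock is known for its grip on glucose uptake, glycolysis and the choice between sugar and fat as fuel.

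The 7 libraries held 8.72 to 12.8 M counts, of which 23.3 to 32.9% came from mitochondrially encoded genes. Markers of muscle fibres summed to between 123000 and 149000 CPM in every library, and the groups overlapped. Control 2 and knockout 1 stood apart on the first principal component (31.7% of the variance, scores of 49.2 and 47.8 against −25.7 to −6.4 in the other 5). These 2 libraries, 1 in each group, held lymphocyte transcripts, and the counts below were also taken without both. A list of 16 T cell markers summed to 67.3 CPM in control 2 and to 105 CPM in knockout 1, against 1.96 to 3.38 CPM elsewhere, and 12 B cell markers other than Ighm summed to 152 and 170 CPM against 13.1 to 30.3 CPM. The second component (21.1%) separated all controls (−24.6 to −19.2) from all knockouts (25.8 to 33.8). Arntl gave no clear check of the genotype on chow, and a 3′ tag can lie outside the deleted part, which is not known here. It was at 12.8, 20.8, 16.2 and 7.97 CPM in controls and 9.82, 9 and 4.54 CPM in knockouts (−0.91 ± 0.28, adjusted p = 0.082), and the groups overlapped. On high-fat diet edgeR called Arntl lower in batch 1 (−1.02, adjusted p = 0.0026) and not in batch 2 (−0.24, adjusted p = 0.24).

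**Figure D1:**
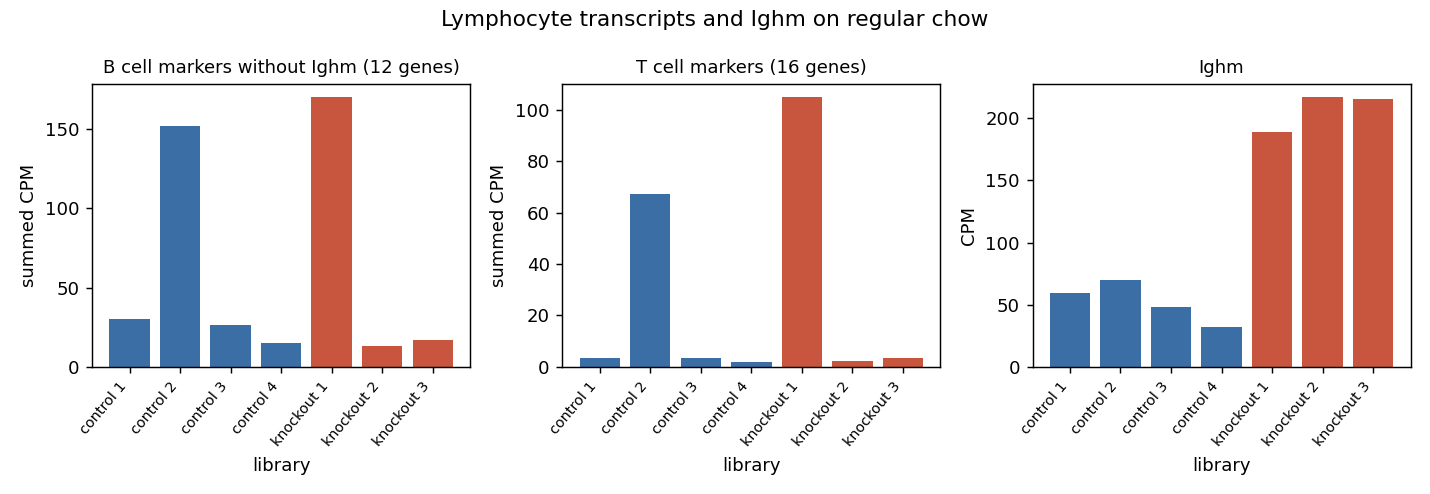
Bars give, for each of the 7 chow libraries, the summed CPM of 12 B cell markers without Ighm (left), the summed CPM of 16 T cell markers (middle) and the CPM of Ighm (right), with controls in blue and knockouts in red. Control 2 and knockout 1 stand above the other 5 libraries in both marker sums, whereas Ighm is higher in all 3 knockouts.

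Loss of Bmal1 on chow changed 490 of 12762 genes tested (3.84%) by edgeR's quasi-likelihood test at a Benjamini-Hochberg adjusted p under 0.05. Of these, 198 (1.55%) rose and 292 (2.29%) fell, 56 and 116 of them by more than 2-fold. Levels in knockouts and controls did not overlap for 449 of the 490, against 1501 of all genes tested (11.8%). Lack of overlap is thus usual among called genes and, where given for them below, adds little to the call. Without scaling of the libraries the split was 319 higher and 206 lower. Without control 2 and knockout 1, 144 genes (1.11%) rose and 220 (1.69%) fell, 364 in all (2.8%). Of the 490, 318 were still called and all kept their sign. Without knockout 3 the count was 293. Throughout, differences are log2 fold changes of knockout against control ± standard error. That error was derived from the test, as the absolute fold change divided by the square root of its F statistic.

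The largest rises and falls were ranked among called genes with a mean log2 CPM of at least 2, without predicted, Riken and mitochondrial genes. Some called genes under that level had larger fold changes, such as Chrna9 (4.34) and Tmem132b (−7.54). The 15 named genes with the largest rises were led by Cdkn1a (chr17:29090976-29100727 of GRCm38, plus strand), which encodes the cell cycle inhibitor p21. Cdkn1a was at 42.7, 49.5, 50.4 and 19.5 CPM in controls and 306, 333 and 524 CPM in knockouts, and its lowest knockout stood far above every control (3.25 ± 0.37, adjusted p = 4.8e-05). Prss55, which encodes a serine protease known mainly from testis in mice, was at 0.994, 1.12, 1.2 and 0.578 CPM in controls and 9.42, 7.32 and 10.2 CPM in knockouts (3.16 ± 0.31, adjusted p = 7.4e-09). The lipid flippase gene Atp8a2 was at 2.88, 1.84, 3.27 and 0.924 CPM in controls and 8.93, 10.8 and 11.8 CPM in knockouts (2.20 ± 0.31, adjusted p = 1.8e-05). None of these 3 overlapped between the groups. Mt1, the metal-binding metallothionein 1, was at 26.7, 41.5, 32.5 and 30.3 CPM in controls and 106, 134 and 159 CPM in knockouts (2.02 ± 0.24, adjusted p = 3.5e-05). Gstm7, a glutathione S-transferase gene, was at 2.09, 1.04, 1.83 and 1.97 CPM in controls and 5.99, 8.25 and 5.54 CPM in knockouts (1.94 ± 0.32, adjusted p = 1.1e-04). Dupd1, a dual specificity phosphatase gene of skeletal muscle, was at 29.6, 21.2, 27 and 34.3 CPM in controls and 83.7, 101 and 95 CPM in knockouts (1.74 ± 0.19, adjusted p = 4.6e-06). All 3 again separated the groups completely.

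Tead4, a TEA domain transcription factor of muscle, rose from 1.91 to 5.27 CPM in controls to 6.18 to 10.5 CPM in knockouts (1.53 ± 0.33, adjusted p = 0.0048). Ttll7, a tubulin polyglutamylase gene, was higher in every knockout, going from 323, 296, 365 and 294 CPM in controls to 751, 886 and 880.5 CPM in knockouts (1.39 ± 0.15, adjusted p = 9.1e-07). Agt, which encodes angiotensinogen, had 4.74 to 11.1 CPM in controls and 20.1 to 24.7 CPM in knockouts (1.42 ± 0.20, adjusted p = 6.1e-06). The secreted glycoprotein gene Olfm1 had 3.58 to 5.69 CPM in controls and 12 to 13.6 CPM in knockouts (1.41 ± 0.22, adjusted p = 5.6e-05). The long noncoding Srrm4os had 1.99 to 3.37 CPM in controls and 5.59 to 8.48 CPM in knockouts (1.38 ± 0.28, adjusted p = 0.0022). The end of its locus lies opposite Srrm4, and no source used here gives the strand setting of the counting. None of the 5 overlapped between the groups, and none of the 11 genes named so far among the rises lost its call under any of 16 alternative fits. Ighm, Chrna1, Mybph and Casq2 complete the 15 and are described with their groups.

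Among the 15 largest falls by the same filters was Mylk4 (chr13:32700834-32783954, GRCm38), which encodes a myosin light chain kinase of striated muscle. It was at 385, 374, 462 and 740 CPM in controls and 48.1, 62.8 and 47.1 CPM in knockouts (−3.22 ± 0.27, adjusted p = 8.8e-07). Dkk3, a secreted member of the Dickkopf family of WNT modulators (chr7:112116017-112159057), had 75, 135, 171 and 93 counts in the controls and 18, 7 and 7 in the knockouts, or 7.45, 10.8, 13.6 and 10.8 CPM in controls and 1.77, 0.656 and 0.588 CPM in knockouts (−3.42 ± 0.32, adjusted p = 4.4e-09). The ratio of summed levels, knockout to control, was 0.0901 (exact 95% counting interval 0.0609 to 0.129). Both genes fell in each knockout to well under the lowest control.

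Car3, the carbonic anhydrase of slow fibres and fat cells, was at 1361, 1591, 1333 and 894 CPM in controls and 355, 159.9 and 208 CPM in knockouts (−2.42 ± 0.27, adjusted p = 2.6e-05). The adipocyte list was also lower in most of its members: 13 of 14 tested had a negative fold change and their median was −0.99 (−0.001 over all genes tested), although only Car3 passed the test. The 14 adipocyte markers other than Car3 summed to 834, 1390, 545 and 536 CPM in the controls and 782, 371 and 444 CPM in the knockouts, so the groups overlapped, with control 2 highest. Fabp4, a fatty acid carrier of fat and endothelium, was at 233, 319.7, 165 and 179.9 CPM in controls and 217, 124 and 141 CPM in knockouts (−0.48 ± 0.23, adjusted p = 0.39). Pparg, the regulator of fat cell differentiation, had 2.19 to 3 CPM in controls and 1.18 to 1.37 CPM in knockouts (−0.97 ± 0.44, adjusted p = 0.3). The part of fat tissue in the Car3 difference was not tested, and in whole muscle fewer cells of a type and less RNA per cell cannot be told apart.

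Aebp1, which encodes a secreted collagen-binding protein, was at 63.3, 64.1, 75.2 and 46.8 CPM in controls and 14.4, 9.57 and 14.2 CPM in knockouts (−2.29 ± 0.19, adjusted p = 4.4e-09). It was the only one of 32 extracellular matrix genes tested to be called, and the median of that list was −0.06. Sorbs3, the vinculin-binding adaptor vinexin, was at 8.55, 16.1, 14.3 and 14.3 CPM in controls and 3.34, 3.28 and 1.68 CPM in knockouts (−2.28 ± 0.24, adjusted p = 7.7e-08). Rasd2, a small GTPase of the RAS family, was at 55.2, 45.8, 49.6 and 49.1 CPM in controls and 13.7, 14 and 8.57 CPM in knockouts (−2.05 ± 0.20, adjusted p = 9.6e-08). Every knockout stood under every control for these 3. Hist1h4i, a histone H4 gene that belongs to a family of near-identical copies and is therefore uncertain, had 20.1 to 29.5 CPM in controls and 5.25 to 8.15 CPM in knockouts (−2.01 ± 0.26, adjusted p = 2.9e-05). The homeobox gene Six2 had 10.4 to 19.7 CPM in controls and 1.96 to 4.5 CPM in knockouts (−1.87 ± 0.31, adjusted p = 3.0e-04). Mr1, an antigen-presenting molecule for vitamin B metabolites, had 9.84 to 14.8 CPM in controls and 2.94 to 4.22 CPM in knockouts (−1.76 ± 0.21, adjusted p = 4.5e-07). Mid1ip1, a regulator of lipogenesis, had 4.25 to 12 CPM in controls and 1.41 to 2.94 CPM in knockouts (−1.74 ± 0.31, adjusted p = 3.2e-04). Cdh4, a classical cadherin gene, had 10.6 to 22.2 CPM in controls and 2.25 to 6.47 CPM in knockouts (−1.91 ± 0.44, adjusted p = 0.019). Mical2, an actin-oxidising monooxygenase gene, had the smallest p of all and was chosen after its values were seen. It was at 40.8, 39.1, 48.9 and 46 CPM in controls and 14.2, 12.8 and 12.7 CPM in knockouts (−1.72 ± 0.13, adjusted p = 7.6e-11). Cdh4 lost its call without control 3 or knockout 1 or 2 and without control 2 and knockout 1 together (adjusted p up to 0.087).

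**Figure D2:**
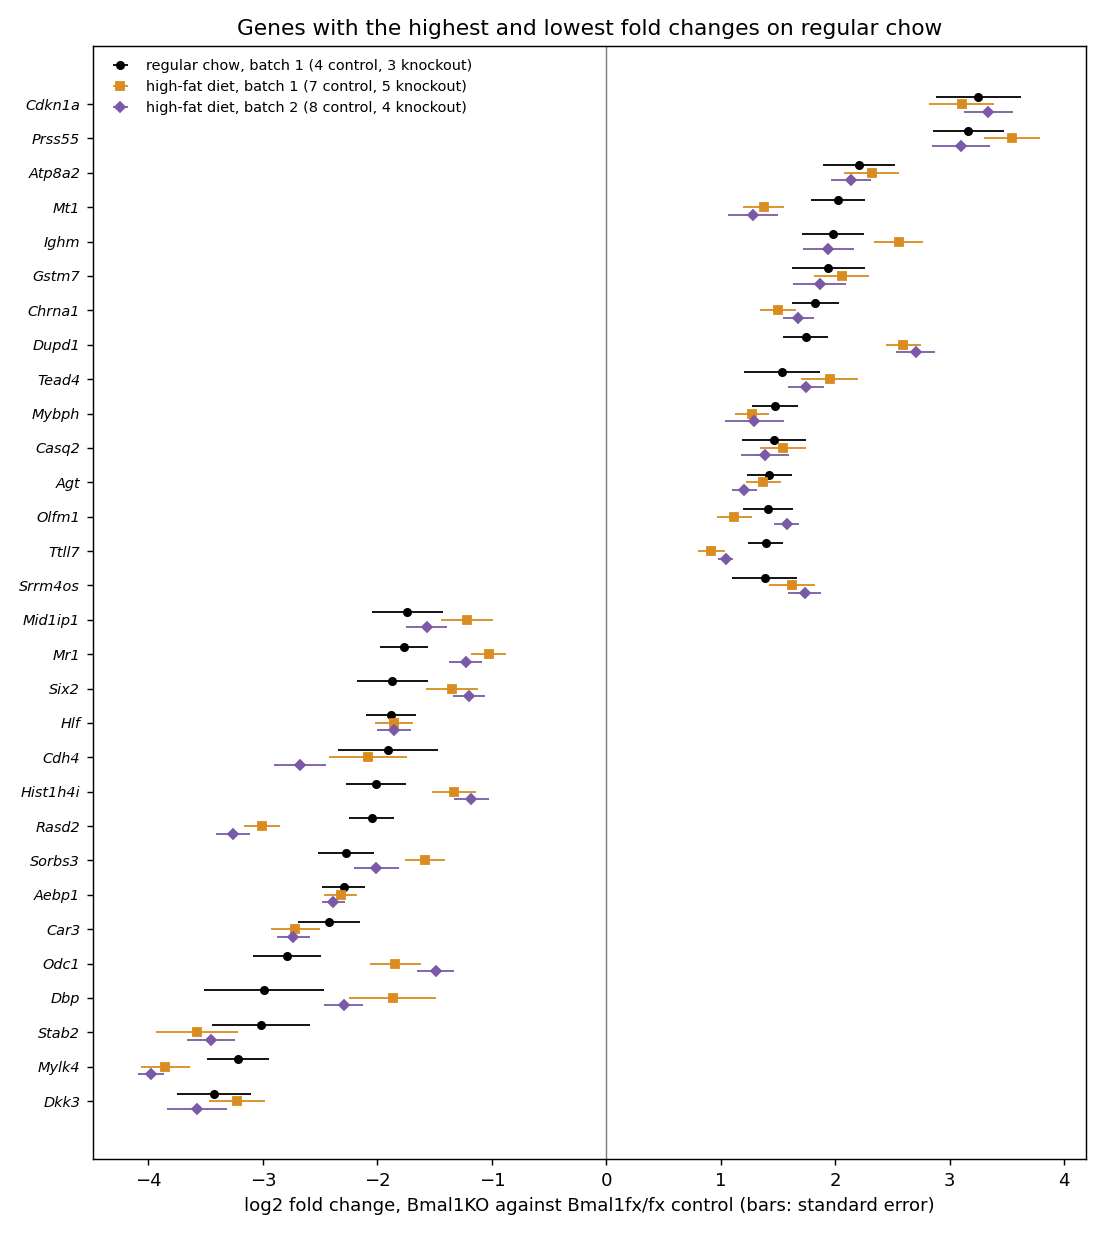
Points give the log2 fold change of Bmal1KO against control, with standard errors, for the 15 highest and 15 lowest named genes on chow (black), in the batch 1 animals on high-fat diet (orange) and in the batch 2 animals on high-fat diet (purple). All 30 genes keep their direction in the 3 comparisons. Chow fold changes run from 3.25 for Cdkn1a to −3.42 for Dkk3.

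The clock genes moved in both directions. The counts in this and the other lists are to be read beside the shares of all genes tested, of which 1.55% rose and 2.29% fell. Of 4 activators tested 1 rose and 1 fell, of 12 repressors 1 rose and 6 fell, and of 12 outputs none rose and 4 fell, with medians of −0.29, −0.85 and −0.51. Without control 2 and knockout 1 the counts were 1 and 1, 0 and 5, and 0 and 4.

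Among the activators, Clock rose from 23.4, 24.6, 23.9 and 18.6 CPM in controls to 51.9, 42.4 and 44.7 CPM in knockouts (1.03 ± 0.12, adjusted p = 5.4e-07), so every knockout held clearly more than every control. Rora, the nuclear receptor that drives ROR element genes, was at 231, 204, 249 and 296 CPM in controls and 125, 137 and 151 CPM in knockouts (−0.83 ± 0.13, adjusted p = 6.0e-05). Npas2, a stand-in for CLOCK, was barely detected, with 0 to 1.44 CPM in controls and 0.336 to 1.37 CPM in knockouts (0.26 ± 0.79, adjusted p = 0.95). Arntl2 was too low to test.

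REV-ERB and DEC genes made up 4 of the 6 repressors that fell, and the others, Ciart and Per3, fell further. Nr1d1, encoding REV-ERBα, was at 87.2, 69.3, 82.1 and 61.6 CPM in controls and 30.6, 21.2 and 28.5 CPM in knockouts (−1.49 ± 0.18, adjusted p = 6.1e-06). Nr1d2, encoding REV-ERBβ, was at 37.8, 31.5, 33.6 and 39.8 CPM in controls and 9.13, 9.57 and 14.7 CPM in knockouts (−1.67 ± 0.19, adjusted p = 3.2e-07). Bhlhe40, encoding DEC1, was at 44.6, 27.3, 28.2 and 25.7 CPM in controls and 8.64, 10.1 and 10.8 CPM in knockouts (−1.67 ± 0.24, adjusted p = 7.5e-05). Its partner Bhlhe41, encoding DEC2, was at 43.1, 29.8, 39.5 and 53.7 CPM in controls and 13.6, 28 and 18.1 CPM in knockouts (−1.06 ± 0.20, adjusted p = 0.0019). All 4 separated the groups, Bhlhe41 by the least, since knockout 2 at 28 CPM came close to control 2 at 29.8 CPM. The last 500 bases of Nr1d1 lie opposite Thra, a thyroid hormone receptor gene that itself rose (0.62 ± 0.11, adjusted p = 2.1e-04), with 52 to 61.2 CPM in controls and 75.7 to 96.1 CPM in knockouts. Reads of this pair can be told apart only if strand was used in counting.

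Ciart, the repressor CHRONO, was almost silent in knockouts, with 18, 25, 16 and 20 counts in the controls and 1, 1 and 0 in the knockouts. Summed over animals, the knockout level was 0.0338 of the control level (exact 95% counting interval 0.00402 to 0.126, adjusted p = 0.0028). Per3 was at 7.55, 7.38, 2.55 and 5.08 CPM in controls and 1.37, 2.16 and 0.924 CPM in knockouts (−1.92 ± 0.43, adjusted p = 0.005). Per1 did not pass, with 10.8 to 14.3 CPM in controls and 5.89 to 11.3 CPM in knockouts (−0.47 ± 0.41, adjusted p = 0.71). Neither did Per2, with 2.71 to 4.25 CPM in controls and 2.06 to 2.36 CPM in knockouts (−0.64 ± 0.39, adjusted p = 0.53). Cry1 rose, from 7.85, 6.97, 5.9 and 5.55 CPM in controls to 10.2, 11.4 and 10.2 CPM in knockouts (0.69 ± 0.20, adjusted p = 0.037). Cry2 had 12.3 to 19.99 CPM in controls and 9.91 to 17.1 CPM in knockouts (−0.03 ± 0.20, adjusted p = 0.98). Overlap between the groups was seen for the kinase genes Csnk1d (−0.12 ± 0.14, adjusted p = 0.8) and Csnk1e (0.05 ± 0.15, adjusted p = 0.95), whose products tune period turnover. Per3 lost its call without knockout 3 and without control 2 and knockout 1 together (adjusted p up to 0.0659). Cry1 lost its call without control 3 or 4 or knockout 1, 2 or 3, with the chow libraries alone and without control 2 and knockout 1 together (adjusted p up to 0.144). Bhlhe41 lost its call with the chow libraries alone (adjusted p up to 0.0863).

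All 3 PAR bZIP genes fell. Dbp was at 31.3, 10.0, 18.4 and 28.4 CPM in controls and 2.65, 4.03 and 1.6 CPM in knockouts (−2.99 ± 0.52, adjusted p = 0.0026), and control 2, at 10 CPM, was the lowest of the controls. Hlf was at 17.5, 13.6, 20.4 and 17.2 CPM in controls and 4.81, 4.6 and 4.54 CPM in knockouts (−1.88 ± 0.22, adjusted p = 3.6e-07), with 3 nearly equal knockouts. Tef was at 104, 71.2, 96.1 and 110.4 CPM in controls and 39.1, 49.6 and 50.6 CPM in knockouts (−1.04 ± 0.15, adjusted p = 1.6e-05). Coq10b, a coenzyme Q binding protein gene, had 5.66 to 7.85 CPM in controls and 2.06 to 3.04 CPM in knockouts (−1.24 ± 0.32, adjusted p = 0.018). Nfil3, a repressor acting on the same D-box sites as the PAR factors, had 6.36 to 17.9 CPM in controls and 20.1 to 24.8 CPM in knockouts and did not pass (0.68 ± 0.32, adjusted p = 0.35). Nor did the deubiquitinase gene Usp2 (−0.61 ± 0.28, adjusted p = 0.34), the glycolytic regulator Pfkfb3 (−0.41 ± 0.31, adjusted p = 0.66), the NAD synthesis enzyme Nampt (−0.30 ± 0.14, adjusted p = 0.33) or Klf15, a regulator of amino acid breakdown (−0.13 ± 0.17, adjusted p = 0.85). Pfkfb3 was split, with knockout 3 at 313 CPM inside the control range of 302 to 325 CPM and knockouts 1 and 2 at 211 and 190 CPM. The remaining outputs, Wee1 (−0.73 ± 0.57, adjusted p = 0.66), Tspan4 (−0.38 ± 0.31, adjusted p = 0.68) and Lonrf3 (−0.02 ± 0.90, adjusted p = 1), were all under 7 CPM and overlapped. Coq10b lost its call without control 1 or knockout 2 or 3 (adjusted p up to 0.115).

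**Figure D3:**
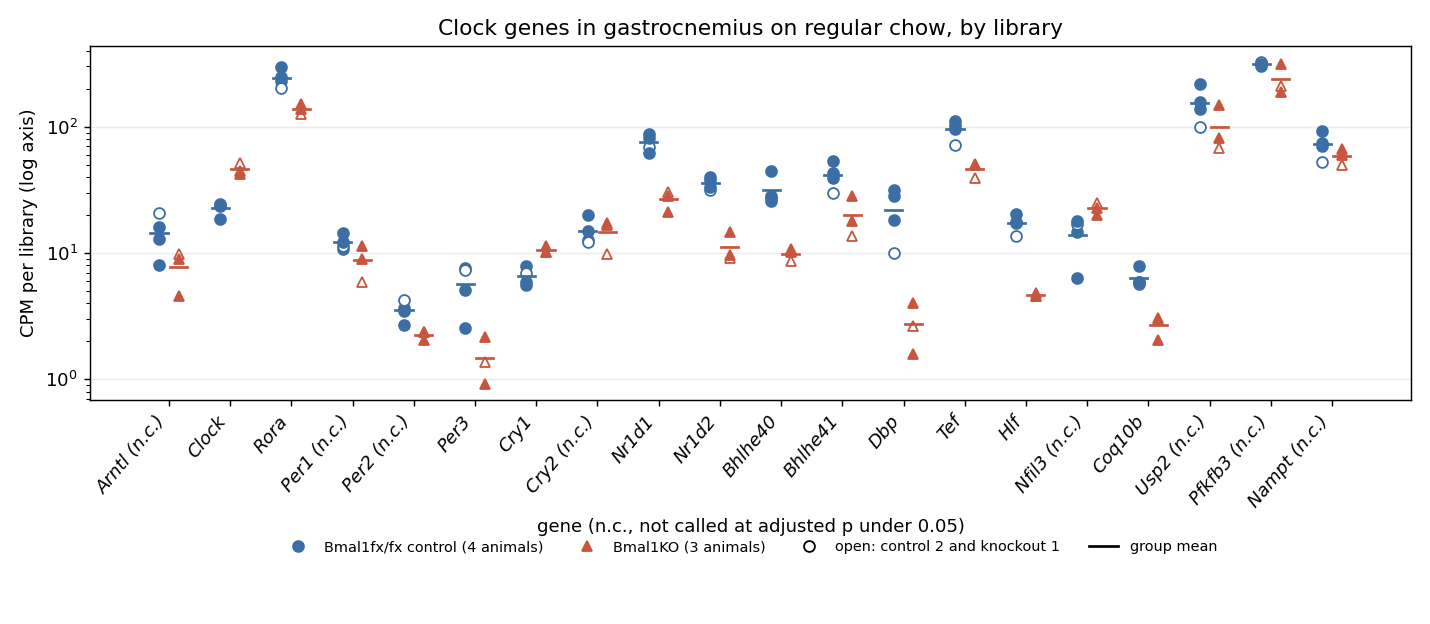
Each symbol is the CPM of 1 library, on a log axis, for 20 clock genes in the 4 controls (blue circles) and 3 knockouts (red triangles). Lines mark group means and open symbols mark control 2 and knockout 1. Nr1d1, Nr1d2, Bhlhe40, Dbp and Hlf show the widest separation, and Clock and Cry1 are higher in knockouts.

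Promoter letters are shown for 7 clock genes that were called and whose RefSeq windows (GRCm38.p6, 250 bases before the gene start) hold a core element through which BMAL1 or the PAR factors bind. Searched on both strands were the E-box CACGTG, the E′-box CACGTT and the D-box TTATGTAA. These occur in 6.02%, 3.85% and 0.819% of the 32851 windows of the table. Windows were found for 25 of the 29 clock genes described here (not for Per2, Bhlhe40, Csnk1d and Wee1). Some genes have more than 1 window, and a gene was counted if any of its windows held the element. An E-box was present in 10 of the 25, an E′-box in 3 and a D-box in 2. The shares above are per window and these counts per gene, so the 2 are not directly comparable. The stretches below are written 5′ to 3′ on the gene's strand with the elements in capitals, no 2 of which overlap. Ciart (chr3:95882253-95882358, minus strand), the deepest fall among the 7, holds 3 E-boxes. Bhlhe41 (chr6:145865554-145865587, minus) and Tef (chr15:81811262-81811295, plus) fell and hold 1 each in the windows shown. Tef has another window, at another gene start, which also holds an E-box and is not shown. Cry1 (chr10:85185095-85185128, minus) holds 1 too, beside an E′-box not shown in full, and it rose. Nr1d1 (chr11:98775386-98775419, minus) holds an E′-box in reverse orientation. Coq10b (chr1:55052594-55052711, plus) holds a D-box in reverse orientation and an E-box, and Per3 (chr4:151044802-151044884, minus) holds 2 D-boxes.
Ciart: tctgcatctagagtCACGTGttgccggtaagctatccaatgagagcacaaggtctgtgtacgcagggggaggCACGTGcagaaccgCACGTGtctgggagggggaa
Bhlhe41: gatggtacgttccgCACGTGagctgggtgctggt
Tef: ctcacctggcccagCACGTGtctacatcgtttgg
Cry1: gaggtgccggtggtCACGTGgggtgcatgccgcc
Nr1d1: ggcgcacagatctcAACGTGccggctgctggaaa
Coq10b: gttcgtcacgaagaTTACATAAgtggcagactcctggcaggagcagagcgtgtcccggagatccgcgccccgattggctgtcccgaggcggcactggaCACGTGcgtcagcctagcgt
Per3: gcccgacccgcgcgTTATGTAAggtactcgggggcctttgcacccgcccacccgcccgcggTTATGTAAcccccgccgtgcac
The same elements occur in windows of clock genes that were not called. Klf15 holds E-boxes that start at −228 and −172 relative to the gene start, and another at −3 runs past that start. Its fold change was −0.13 ± 0.17, adjusted p = 0.85. Per1, Pfkfb3, Tspan4 and Lonrf3 also hold an E-box, and Cry2 holds an E′-box. Conversely, the called clock genes Clock, Rora, Nr1d2, Dbp and Hlf have windows that hold none of these elements. A match is a description of letters and does not show binding in these muscles.

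Genes of glucose entry mostly fell where they passed the test. Of 25 glucose uptake and insulin signalling genes tested, 1 rose and 4 fell (1 and 3 without control 2 and knockout 1), and the list's median was 0.00. Tbc1d1, a RAB GTPase-activating protein that holds GLUT4 vesicles back until it is phosphorylated, was at 16.7, 26.1, 26.6 and 34.7 CPM in controls and 9.42, 6.66 and 7.56 CPM in knockouts (−1.72 ± 0.21, adjusted p = 1.4e-06), and no knockout reached the lowest control. Rab10, encoding a GTPase of GLUT4 vesicle traffic, was at 407, 362, 465 and 442 CPM in controls and 260.4, 310.2 and 305 CPM in knockouts (−0.52 ± 0.11, adjusted p = 0.0027). The kinase gene Akt1 had 24.4 to 38.1 CPM in controls and 18.4 to 23.2 CPM in knockouts (−0.52 ± 0.14, adjusted p = 0.024). Pik3ca, the catalytic subunit of phosphoinositide 3-kinase, was the one to rise, from 53.6, 44.1, 54.6 and 51.9 CPM in controls to 69.6, 79.2 and 75.5 CPM in knockouts (0.55 ± 0.11, adjusted p = 0.0018).

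Slc2a3, encoding the glucose transporter GLUT3, had 42, 78, 79 and 56 counts in the controls and 19, 2 and 3 in the knockouts, or 4.17, 6.25, 6.3 and 6.47 CPM in controls and 1.86, 0.188 and 0.252 CPM in knockouts (−2.94 ± 0.51, adjusted p = 3.1e-04). Knockout 1, which holds lymphocyte transcripts, was the highest knockout. Without it and control 2 the fold change was −4.61, adjusted p = 3.2e-06. The part of lymphocytes in the knockout 1 value was not tested. Akt1 lost its call without control 4 or knockout 1 or 3, without scaling, with the chow libraries alone and without control 2 and knockout 1 together (adjusted p up to 0.136).

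The glycolysis and glycogen genes that passed the test fell. Of 24 glycolysis and lactate genes none rose and 4 fell, with a median of −0.14, and of 19 glycogen genes tested none rose and 4 fell, with a median of −0.08. Without control 2 and knockout 1 the counts were 1 and 3, and 0 and 4. The 1 that then rose was Pkm, the muscle pyruvate kinase (0.44, adjusted p = 0.031). With all libraries Pkm was at 979, 882, 1030 and 1178 CPM in controls and 1077, 1500 and 1378 CPM in knockouts and did not pass (0.37 ± 0.12, adjusted p = 0.062), and on high-fat diet it rose (0.36 ± 0.09, adjusted p = 0.0047 in batch 1). Pfkm, the muscle phosphofructokinase, was at 1226, 1100, 1281 and 1571 CPM in controls and 700.4, 898 and 933 CPM in knockouts (−0.62 ± 0.12, adjusted p = 0.0012). Fbp2, the muscle fructose bisphosphatase, was at 26.3, 28, 22.6 and 34.1 CPM in controls and 16.8, 10.9 and 9.83 CPM in knockouts (−1.15 ± 0.22, adjusted p = 0.0018). The lactate exporter gene Slc16a3 (MCT4) had 179 to 232 CPM in controls and 108 to 155 CPM in knockouts (−0.62 ± 0.15, adjusted p = 0.013). The lactate dehydrogenase gene Ldha had 859 to 1098 CPM in controls and 708 to 749.6 CPM in knockouts (−0.42 ± 0.12, adjusted p = 0.035).

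In glycogen handling, Phka1, the regulatory subunit of muscle phosphorylase kinase, was at 293, 277, 311 and 372 CPM in controls and 139, 230.2 and 190.1 CPM in knockouts (−0.75 ± 0.14, adjusted p = 0.001). Phosphoglucomutase gene Pgm2 was at 607, 498, 635 and 729 CPM in controls and 294, 433 and 386 CPM in knockouts (−0.73 ± 0.15, adjusted p = 0.0016). Ugp2, which makes the UDP-glucose for glycogen, had 329.8 to 488 CPM in controls and 259 to 322 CPM in knockouts (−0.54 ± 0.12, adjusted p = 0.0058). Stbd1, a glycogen-binding protein gene, had 9.94 to 18.8 CPM in controls and 6.1 to 7.98 CPM in knockouts (−0.95 ± 0.23, adjusted p = 0.012). None of the 8 genes overlapped between the groups, which also held for 449 of all 490 called genes. Slc16a3 lost its call without knockout 1 and without control 2 and knockout 1 together (adjusted p up to 0.113). Ldha lost its call without control 3 or 4 or knockout 1, 2 or 3, without robust estimation and with the chow libraries alone (adjusted p up to 0.127). Ugp2 lost its call without knockout 1 (adjusted p up to 0.0543). Stbd1 lost its call without control 4 or knockout 2 (adjusted p up to 0.0784).

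At the entry from glycolysis to the TCA cycle, the called genes fell, while most genes of the list leaned slightly upward. Of 32 pyruvate and TCA cycle genes 1 rose and 3 fell (the same counts without control 2 and knockout 1), yet 27 had a positive fold change and the median was 0.18. The mitochondrial pyruvate carrier gene Mpc1 was at 50.7, 42.2, 48.9 and 49.1 CPM in controls and 33.8, 23.2 and 32 CPM in knockouts (−0.69 ± 0.15, adjusted p = 0.0056). Pdp1, the phosphatase that activates pyruvate dehydrogenase, had 15.3 to 26.1 CPM in controls and 10.8 to 13.3 CPM in knockouts (−0.78 ± 0.20, adjusted p = 0.019). Pcx, pyruvate carboxylase, had 12.4 to 17.7 CPM in controls and 6.3 to 10.8 CPM in knockouts (−0.74 ± 0.22, adjusted p = 0.049). Sucla2, a subunit of succinyl-CoA ligase, rose from 180.3, 152, 196 and 194 CPM in controls to 245, 267 and 294 CPM in knockouts (0.57 ± 0.11, adjusted p = 5.2e-04). Mpc1 lost its call without knockout 2 (adjusted p up to 0.0735). Pdp1 lost its call without control 4 or knockout 1, 2 or 3 (adjusted p up to 0.108). Pcx lost its call without control 1, 3 or 4 or knockout 1, 2 or 3, with RLE scaling, without scaling, without robust estimation and with the chow libraries alone (adjusted p up to 0.344).

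Nuclear genes of the respiratory chain leaned upward as a group with small fold changes. Of 72 tested, 70 had a positive log2 fold change, 39 did not overlap between the groups (11.8% of all genes tested did not), and the median was 0.26, against −0.001 over all genes. The test was passed by 6 and all 6 rose (1.55% of all genes rose), or by 3 without control 2 and knockout 1, where the median was 0.22. Cox5a was at 463, 416, 532 and 534 CPM in controls and 665, 647 and 701 CPM in knockouts (0.47 ± 0.10, adjusted p = 0.0043). Cox5b was at 348, 317, 376 and 425 CPM in controls and 460.3, 538 and 589 CPM in knockouts (0.53 ± 0.12, adjusted p = 0.0065). Cox7a1, the muscle form of subunit 7a, had 201 to 280.4 CPM in controls and 334 to 365 CPM in knockouts (0.55 ± 0.13, adjusted p = 0.0067). All 3 belong to cytochrome c oxidase. The ATP synthase genes Atp5a1 (0.40 ± 0.11, adjusted p = 0.024) and Atp5b (0.38 ± 0.11, adjusted p = 0.042) and the complex I gene Ndufa7 (0.40 ± 0.11, adjusted p = 0.038) also rose. The summed level of the list was 21100, 18100, 22200 and 22900 CPM in the controls and 24300, 25500 and 26300 CPM in the knockouts, with control 2 lowest. Transcripts encoded in mitochondrial DNA made up 28.5 ± 4.08% of counts (SD, n = 4) in controls and 26.0 ± 2.85% (n = 3) in knockouts, a difference of −2.43 points (exact two-sided permutation test over 35 splits, p = 0.429, smallest possible p 0.0286). Cox5b lost its call without knockout 3 (adjusted p up to 0.0916). Atp5a1 lost its call without control 2 or knockout 2 or 3, with the chow libraries alone and without control 2 and knockout 1 together (adjusted p up to 0.127). Atp5b lost its call without control 1, 2 or 3 or knockout 1, 2 or 3, without robust estimation, with the chow libraries alone and without control 2 and knockout 1 together (adjusted p up to 0.208). Ndufa7 lost its call without control 2 or 3 or knockout 1 or 3, without robust estimation, with the chow libraries alone and without control 2 and knockout 1 together (adjusted p up to 0.268).

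Of 34 fatty acid genes tested 4 rose and 1 fell (3 and 1 without control 2 and knockout 1), with a median of 0.08. Acadm, medium-chain acyl-CoA dehydrogenase, was at 232, 181, 219 and 256 CPM in controls and 366, 345 and 364 CPM in knockouts (0.69 ± 0.11, adjusted p = 1.2e-04), with no overlap. Plin5, which tethers lipid droplets to mitochondria, was at 15.8, 10.3, 14.8 and 19.99 CPM in controls and 27.7, 31.6 and 42.2 CPM in knockouts (1.16 ± 0.24, adjusted p = 0.0067). Acsl1, which activates long-chain fatty acids, had 162 to 212 CPM in controls and 241 to 324 CPM in knockouts (0.59 ± 0.13, adjusted p = 0.0043). The lipoprotein lipase inhibitor gene Angptl4 had 11.8 to 17.3 CPM in controls and 17.1 to 34.8 CPM in knockouts (0.76 ± 0.21, adjusted p = 0.044). Its groups overlapped, with knockout 1 highest. Ucp3, the mitochondrial uncoupling protein of muscle, was the one to fall, with 109 to 123 CPM in controls and 59.7 to 94.8 CPM in knockouts (−0.61 ± 0.13, adjusted p = 0.0039). Acsl1 lost its call without knockout 2 (adjusted p up to 0.0673). Plin5 lost its call without knockout 3 (adjusted p up to 0.0574). Angptl4 lost its call without control 1, 2 or 4 or knockout 1, with the chow libraries alone and without control 2 and knockout 1 together (adjusted p up to 0.418). Ucp3 lost its call without knockout 3 (adjusted p up to 0.0868).

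**Figure D4:**
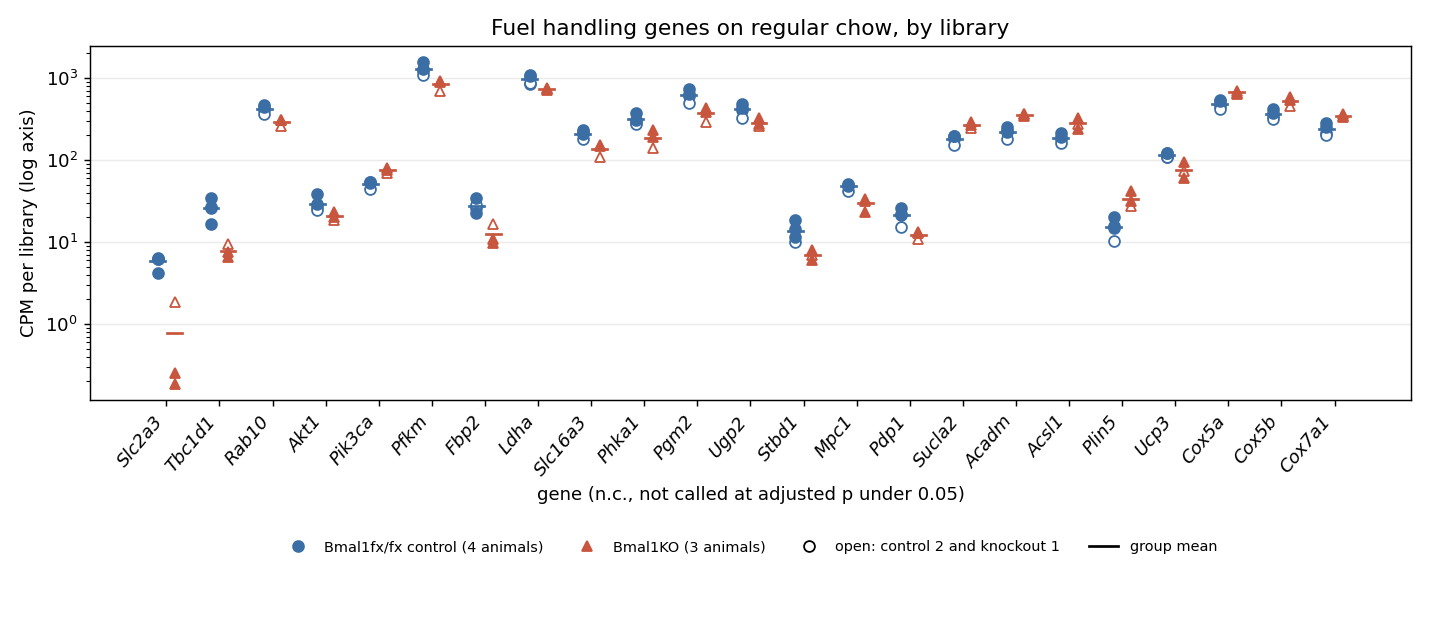
Each symbol is the CPM of 1 library, on a log axis, for 23 called genes of glucose, glycogen, pyruvate, fat and respiratory chain handling in the 4 controls (blue circles) and 3 knockouts (red triangles). Lines mark group means and open symbols mark control 2 and knockout 1. Genes from Slc2a3 to Pdp1 are lower in knockouts except Pik3ca, and those from Sucla2 to Cox7a1 are higher except Ucp3.

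The contractile genes that passed the test moved in both directions. Of 19 fast fibre genes 1 rose and 2 fell (median −0.08; 1 and 1 without control 2 and knockout 1), and of 16 slow fibre genes 1 rose and 1 fell, where 3.84% of all genes tested were called. Mylpf, the regulatory light chain of fast myosin, was at 9890, 8975, 10180 and 8984 CPM in controls and 13280, 13420 and 16320 CPM in knockouts (0.59 ± 0.13, adjusted p = 0.0039). Mylk4, described above, and Tpm1, α-tropomyosin, fell, Tpm1 with 21450 to 26260 CPM in controls and 15270 to 18550 CPM in knockouts (−0.51 ± 0.13, adjusted p = 0.017). Slow fibre genes had a median of 0.52, which was 0.26 without control 2 and knockout 1. Tnni1, slow troponin I, had 30.1 to 58.7 CPM in controls and 66.6 to 93.5 CPM in knockouts and did not pass (0.88 ± 0.50, adjusted p = 0.5). Mb, myoglobin, was at 1164, 486, 918 and 1373 CPM in controls and 1482, 1984 and 1405 CPM in knockouts (0.72 ± 0.31, adjusted p = 0.3), with control 2 lowest. Ankrd2, a stretch-responsive gene of slow muscle, had 125 to 182 CPM in controls and 176 to 313 CPM in knockouts and overlapped (0.71 ± 0.32, adjusted p = 0.33). The called slow fibre genes were Car3, which fell, and Casq2, which rose. Mylpf lost its call without knockout 3 (adjusted p up to 0.0728). Tpm1 lost its call without control 1 or 3 or knockout 1 or 2, with the chow libraries alone and without control 2 and knockout 1 together (adjusted p up to 0.109).

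Among 27 genes of calcium stores and excitation-contraction coupling 4 rose and 1 fell (3 and 1 without control 2 and knockout 1), with a median of 0.04. Mrln, which encodes myoregulin, a micropeptide that inhibits the calcium pump SERCA, was at 132, 125, 155 and 111 CPM in controls and 286, 301 and 343 CPM in knockouts (1.24 ± 0.12, adjusted p = 6.2e-09). Casq2, the calcium-binding calsequestrin of slow and cardiac muscle, was at 14.4, 8.18, 11.5 and 16.5 CPM in controls and 34.6, 33.3 and 35.5 CPM in knockouts (1.46 ± 0.28, adjusted p = 0.0045). Neither overlapped between the groups. Cacnb1, a subunit of the voltage sensor channel, had 42.7 to 55.4 CPM in controls and 52.4 to 73.2 CPM in knockouts, which overlapped (0.46 ± 0.13, adjusted p = 0.034). The store calcium sensor gene Stim1 had 147 to 182 CPM in controls and 194 to 236 CPM in knockouts (0.34 ± 0.10, adjusted p = 0.049). Jph2, which ties the sarcoplasmic reticulum to the T-tubule, was at 228, 156, 187 and 162 CPM in controls and 116, 120.2 and 100 CPM in knockouts (−0.71 ± 0.16, adjusted p = 0.0076). Sln, encoding the other SERCA regulator sarcolipin, was low on chow, at 0.696, 1.6, 2.23 and 4.28 CPM in controls and 3.53, 6.28 and 5.21 CPM in knockouts, and did not pass (1.23 ± 0.73, adjusted p = 0.53). Cacnb1 lost its call without control 1, 2 or 4 or knockout 2 or 3 and with the chow libraries alone (adjusted p up to 0.269). Stim1 lost its call without control 1, 2, 3 or 4 or knockout 2 or 3, without the count filter, without robust estimation, with the chow libraries alone and without control 2 and knockout 1 together (adjusted p up to 0.239). Jph2 lost its call without knockout 3 (adjusted p up to 0.0696).

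At the neuromuscular junction, 3 of 24 genes tested rose and 1 fell, with or without control 2 and knockout 1, and the median was 0.06. Chrna1, the α subunit of the acetylcholine receptor, was at 12.4, 9.86, 15.1 and 18.5 CPM in controls and 35.8, 58.5 and 53.2 CPM in knockouts (1.83 ± 0.20, adjusted p = 1.4e-06). Its partner Chrnb1, the β subunit, was at 7.16, 9.54, 10.1 and 11.1 CPM in controls and 18.8, 16.6 and 16 CPM in knockouts (0.85 ± 0.18, adjusted p = 0.0025). Mybph, a myosin-binding protein gene induced by denervation, was at 31.6, 55.7, 35.1 and 25.2 CPM in controls and 89.5, 94.3 and 124 CPM in knockouts (1.47 ± 0.20, adjusted p = 9.5e-05). Fgfbp1, a muscle-secreted FGF carrier that maintains the junction in mice, had 42, 40, 36 and 20 counts in the controls and 8, 5 and 0 in the knockouts, and the groups did not overlap. The ratio of summed levels was 0.126 (exact 95% counting interval 0.0653 to 0.222, adjusted p = 0.0018). Markers of Schwann cells and nerve summed to 51.7 to 75.5 CPM in controls and 71.6 to 75.6 CPM in knockouts, with 0 of 11 called.

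The 22 p53 target genes split. Along with Cdkn1a, Sesn1 and Bbc3 rose and Phlda3 and Tigar fell (2 higher and 2 lower without control 2 and knockout 1), and the median was −0.05. Sesn1, the stress-induced sestrin 1, was at 9.54, 11.9, 11.2 and 10.8 CPM in controls and 33.1, 14.1 and 28.9 CPM in knockouts (1.22 ± 0.19, adjusted p = 6.0e-05), with knockout 2 close to the controls. Phlda3, an inhibitor of AKT, was at 159, 144, 149 and 178 CPM in controls and 98.9, 107 and 96.2 CPM in knockouts (−0.65 ± 0.13, adjusted p = 0.0018). Tigar, a fructose bisphosphatase that restrains glycolysis, was at 137, 104, 109 and 164 CPM in controls and 64.8, 82.6 and 89 CPM in knockouts (−0.70 ± 0.15, adjusted p = 0.0027). Bbc3, the pro-apoptotic PUMA, stayed under 5 CPM, with 0.578 to 1.92 CPM in controls and 2.25 to 4.32 CPM in knockouts (1.56 ± 0.45, adjusted p = 0.039). Bbc3 lost its call without control 1, 3 or 4 or knockout 1 or 3, without robust estimation, with the chow libraries alone and without control 2 and knockout 1 together (adjusted p up to 0.15).

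The polyamine genes that passed the test fell. Of 17 genes tested none rose and 4 fell, beside 2.29% of all genes (0 and 2 without control 2 and knockout 1), with a median of −0.19. Odc1, ornithine decarboxylase, the rate-limiting enzyme, was at 28.9, 21.2, 33.9 and 27.6 CPM in controls and 2.85, 7.03 and 2.27 CPM in knockouts (−2.79 ± 0.30, adjusted p = 1.5e-06). Amd1, adenosylmethionine decarboxylase, was at 343, 263, 482 and 468 CPM in controls and 68.7, 234 and 132 CPM in knockouts (−1.42 ± 0.36, adjusted p = 0.038). Its near-identical copy Amd2, between which the counting could split reads, had 24.2 to 51.4 CPM in controls and 10.2 to 20.3 CPM in knockouts (−1.32 ± 0.35, adjusted p = 0.05). Spermine synthase gene Sms had 67.8 to 108 CPM in controls and 52.8 to 78.1 CPM in knockouts, which overlapped (−0.62 ± 0.17, adjusted p = 0.029). Knockout 2 was the highest knockout for all 4 genes. Amd1 lost its call without control 1, 3 or 4 or knockout 1 or 3, without the count filter, with the chow libraries alone and without control 2 and knockout 1 together (adjusted p up to 0.312). Amd2 lost its call without control 1, 3 or 4 or knockout 1, 2 or 3, with RLE scaling, without the count filter, with the chow libraries alone and without control 2 and knockout 1 together (adjusted p up to 0.19). Sms lost its call without control 1, 3 or 4 or knockout 1 or 3 and with the chow libraries alone (adjusted p up to 0.201).

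Each of the stress and hormone lists held 1 to 3 calls, where 3.84% of all genes tested were called. Of 26 metallothionein and NRF2 target genes 2 rose, Mt1 and Gstm7, and none fell (median −0.08). HIF-induced genes are targets of the hypoxia factors named in the study's title. Of 35 tested none rose and 3 fell, Bhlhe40, Slc2a3 and Ldha (0 and 4 without control 2 and knockout 1), with a median of −0.09. Of 27 glucocorticoid and atrophy genes 1 rose, Cdkn1a, and 2 fell (1 and 1 without those libraries). Tsc22d3, a glucocorticoid-induced leucine zipper gene, was at 139, 162, 189 and 169 CPM in controls and 78.5, 79.1 and 109.7 CPM in knockouts (−0.89 ± 0.18, adjusted p = 0.005). Zbtb16, a glucocorticoid-induced zinc finger gene, had 40.7 to 64.5 CPM in controls and 30.3 to 40.9 CPM in knockouts, which overlapped (−0.57 ± 0.14, adjusted p = 0.014).

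Of 22 integrated and endoplasmic reticulum stress genes 2 fell (0 and 1 without those libraries). Herpud1, a component of the endoplasmic reticulum degradation machinery, was at 83.9, 68.2, 71.6 and 87.7 CPM in controls and 49.2, 46 and 45.6 CPM in knockouts (−0.73 ± 0.12, adjusted p = 1.1e-04). Xbp1, a transcription factor of the response, had 23.4 to 31.9 CPM in controls and 18.6 to 21.3 CPM in knockouts (−0.52 ± 0.15, adjusted p = 0.05). Of 20 heat shock chaperones 1 fell, Dnajb5 (−0.48 ± 0.14, adjusted p = 0.043). Of 22 immediate early genes 2 fell, Jun (−0.58 ± 0.15, adjusted p = 0.026) and Dusp1 (−0.83 ± 0.22, adjusted p = 0.038), with a median of −0.41. All 3 lost the call without control 2 and knockout 1. Of 25 genes of branched-chain amino acid breakdown none passed the test (1 by that alternative), with a median of 0.03. Beside Dkk3, Lgr4, an R-spondin receptor (−0.74 ± 0.19, adjusted p = 0.014), fell and Smad7, an inhibitor of TGF-β signalling (0.75 ± 0.21, adjusted p = 0.033), rose among 26 WNT and BMP modulators tested. Only Dkk3 was called without those 2 libraries.

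Tsc22d3 lost its call without control 2 and knockout 1 together (adjusted p up to 0.0902). Zbtb16 lost its call without control 3 or knockout 2 or 3, without scaling and with the chow libraries alone (adjusted p up to 0.115). Xbp1 lost its call without control 1, 2 or 4 or knockout 1, 2 or 3, with RLE scaling, without scaling, without robust estimation, with the chow libraries alone and without control 2 and knockout 1 together (adjusted p up to 0.214). Dnajb5 lost its call without control 1, 2 or 3 or knockout 1 or 2, with RLE scaling, without scaling, without robust estimation, with the chow libraries alone and without control 2 and knockout 1 together (adjusted p up to 0.253). Jun lost its call without control 3 or 4 or knockout 1, with the chow libraries alone and without control 2 and knockout 1 together (adjusted p up to 0.209). Dusp1 lost its call without control 1, 2 or 3 or knockout 1, 2 or 3 and without control 2 and knockout 1 together (adjusted p up to 0.214). Lgr4 lost its call without control 1 or knockout 1 or 3, with the chow libraries alone and without control 2 and knockout 1 together (adjusted p up to 0.0944). Smad7 lost its call without control 2 or 3 or knockout 1 or 3, with the chow libraries alone and without control 2 and knockout 1 together (adjusted p up to 0.276).

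**Figure D5:**
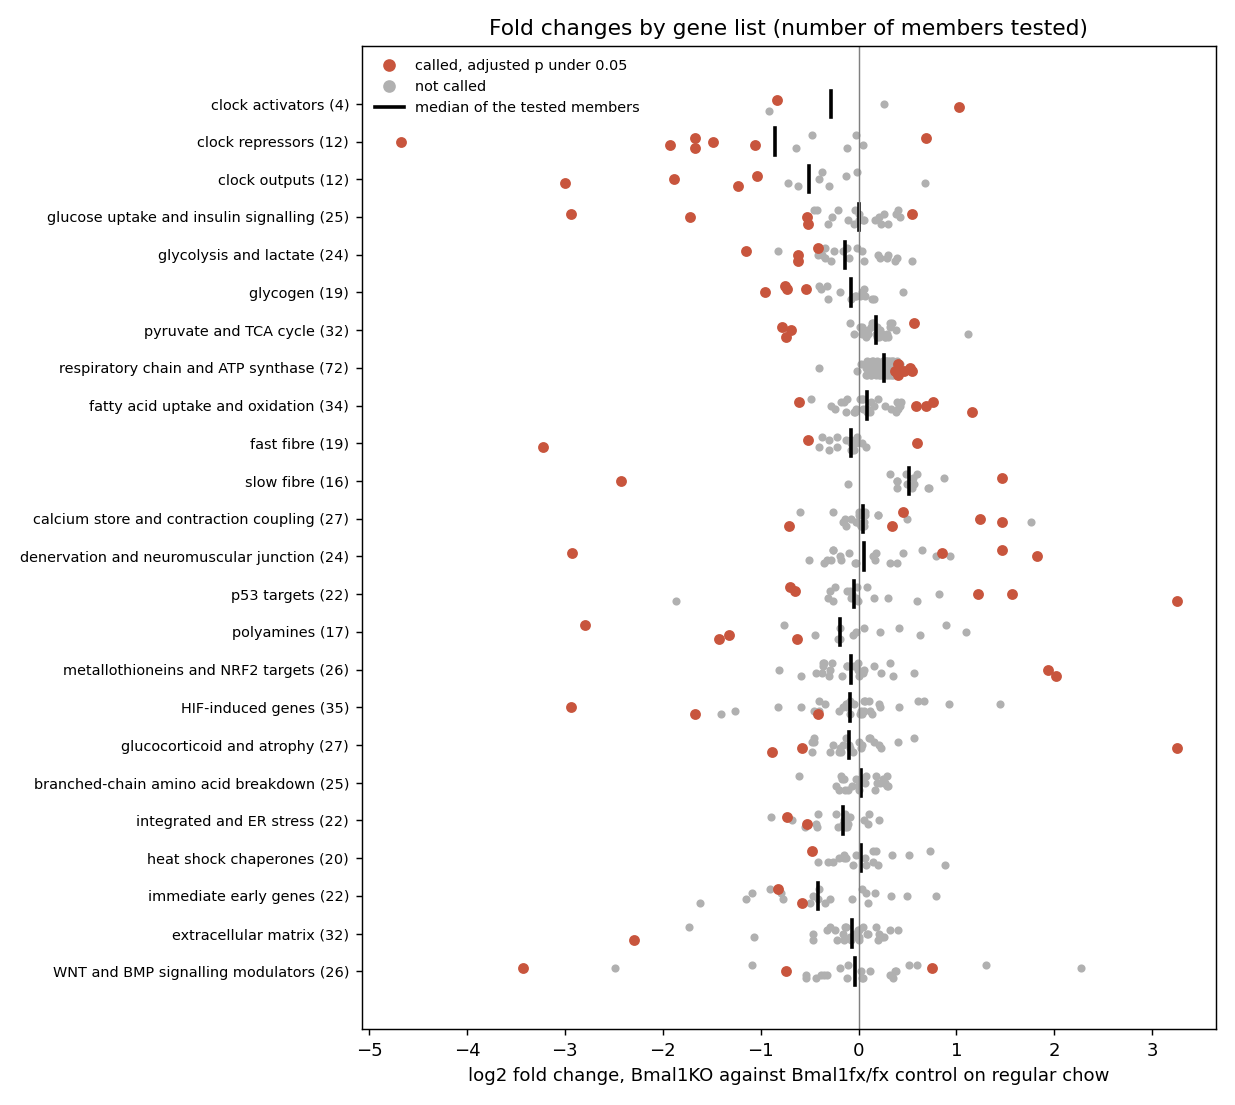
Each row is a gene list with the number of members tested, and each dot is the log2 fold change of 1 member on chow, red where called at an adjusted p under 0.05 and grey where not. Black bars mark medians, which run from −0.85 for clock repressors to 0.52 for slow fibre genes.

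Several genes usually read as markers of other cells were called, while no other tested member of their lists was. Of the 13 B cell markers only 4 could be tested. Ighm, the heavy chain of IgM, was at 59.6, 70.0, 47.9 and 32 CPM in controls and 189, 217 and 216 CPM in knockouts (1.98 ± 0.27, adjusted p = 2.8e-04, and 2.21 without control 2 and knockout 1). The B cell genes Cd22, Cd79a, Blk and Cr2 were at 0 in knockouts 2 and 3, and also in controls 3 and 4. In knockouts 2 and 3 Igkc was at 1.13 and 0.168 CPM and Cd74 at 11.5 and 16.4 CPM. Controls 1, 3 and 4 had 1.62 to 7.85 CPM of Igkc and 12.6 to 23.8 CPM of Cd74. The part of B cells in the Ighm difference was not tested. The 11 B cell markers other than Ighm and Cd74 summed to 1.59 and 0.588 CPM in knockouts 2 and 3, against 2.2 to 9.04 CPM in controls 1, 3 and 4. Stab2, a scavenger receptor of sinusoidal and lymphatic endothelium, had 59, 100, 127 and 54 counts in the controls and 12, 15 and 3 in the knockouts, or 5.86, 8.02, 10.1 and 6.24 CPM in controls and 1.18, 1.41 and 0.252 CPM in knockouts (−3.02 ± 0.43, adjusted p = 1.6e-05). It was the 1 endothelial gene called of 17 tested. The 16 others summed to 183 to 212 CPM in controls and to 225 to 263 CPM in knockouts, without overlap. Of the 17, 13 had a positive fold change, and the median was 0.26.

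Mmp9, a gelatinase made by neutrophils and macrophages among others, was at 2.88, 4.57, 4.47 and 2.77 CPM in controls and 0.982, 0.188 and 0.924 CPM in knockouts (−2.38 ± 0.44, adjusted p = 5.9e-04), and the groups did not overlap. Of the 12 neutrophil markers 3 could be tested, Mmp9, S100a8 and S100a9. S100a8 had 0 to 1.09 CPM in controls and 0.0938 to 1.01 CPM in knockouts and S100a9 had 0.16 to 0.693 CPM in controls and 0.281 to 1.18 CPM in knockouts, and neither passed, while Ly6g and Ngp had 0 counts in every library. Macrophage markers summed to 71.1 to 129 CPM in controls and 52.1 to 106 CPM in knockouts, with 0 of 14 tested called. Of 12 satellite cell markers 1 rose, the syndecan gene Sdc4 (0.41 ± 0.12, adjusted p = 0.05). Sdc4 lost its call without control 1, 2, 3 or 4 or knockout 1, 2 or 3, without the count filter, without robust estimation, with the chow libraries alone and without control 2 and knockout 1 together (adjusted p up to 0.261). No erythrocyte, pericyte, fibro-adipogenic, T cell, keratinocyte or fibre marker was called.

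The chow effects were then set beside those on high-fat diet, which share no animals with them. In batch 1, 488 genes rose (3.82%) and 661 fell (5.18%) with Bmal1 loss on high-fat diet, and in batch 2 909 rose (6.94%) and 911 fell (6.96%). Of the 198 genes that rose on chow 152 (76.8%) also rose on high-fat diet in batch 1, where they made up 31.1% of the rises. In batch 2 159 did (80.3%), which were 17.7% of the 899 rises among genes also tested on chow. Of the 292 that fell 234 (80.1%) also fell in batch 1, or 35.4% of the falls there. In batch 2 242 did (82.9%), or 26.9% of the 898 falls among genes also tested on chow. None was called in the opposite direction in either. The respiratory chain list had 38 of 72 members higher on high-fat diet in batch 1 and 46 in batch 2 (none lower), with medians of 0.29 and 0.23, near the chow median of 0.26.

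A direct test of the chow effect minus the high-fat effect called 0 of 12762 genes by edgeR's quasi-likelihood test, with 575 at an unadjusted p under 0.05 and 3 by DESeq2 (Pak1, Popdc2 and Sesn1). Sesn1, described above, had the smallest p together with Pak1. On high-fat diet Sesn1 was at 8.29, 9.19 and 12.6 CPM (lowest, median, highest) in 7 controls and 9.07, 9.5 and 9.78 CPM in 5 knockouts (−0.06 ± 0.16, adjusted p = 0.92), a difference between the diets of 1.28 ± 0.25, adjusted p = 0.069. Pak1, a kinase of actin remodelling and insulin-stimulated glucose uptake, was at 21.6, 21.2, 22.6 and 22.2 CPM in controls and 17.2, 20.9 and 19.1 CPM in knockouts on chow (−0.20 ± 0.16, adjusted p = 0.66). On high-fat diet it was at 16.4, 17.7 and 23.6 CPM (lowest, median, highest) in 7 controls and 23.5, 33.8 and 42.6 CPM in 5 knockouts (0.85 ± 0.12, adjusted p = 1.9e-06), a difference of −1.05 ± 0.20, adjusted p = 0.069. Cited2, a transcriptional co-regulator that competes with HIF for p300, was at 70.8, 79.5, 81.9 and 78.6 CPM in controls and 96.6, 50.7 and 70.3 CPM in knockouts on chow (−0.10 ± 0.14, adjusted p = 0.85), overlapping, and its fold change on high-fat diet was −0.92 ± 0.11 (difference 0.82 ± 0.18, adjusted p = 0.19). None of these 3 differences passed, although all 3 were called without the count filter. Sesn1 was also called by DESeq2 and without high-fat control 1 or chow knockout 2. Pak1 was also called without scaling, by DESeq2, and without high-fat control 1 or 5 or high-fat knockout 5. Cited2 was also called without chow knockout 2.

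Sln rose on high-fat diet (3.62 ± 0.47 in batch 1 and 4.05 ± 0.30 in batch 2), and the difference from chow did not pass (−2.39 ± 0.90, adjusted p = 1). Mmp9 had a fold change of −0.27 ± 0.29 on high-fat diet against −2.38 ± 0.44 on chow (difference −2.12 ± 0.53, adjusted p = 0.6). Dupd1 and Rasd2 had larger fold changes on high-fat diet, 2.59 ± 0.15 and −3.01 ± 0.16, than on chow, 1.74 ± 0.19 and −2.05 ± 0.20, and these differences did not pass either (−0.85 ± 0.25, adjusted p = 0.77, and 0.96 ± 0.24, adjusted p = 0.62). Without the count filter both differences were called, and that of Dupd1 also without high-fat control 1. Odc1 went the other way, with −1.84 ± 0.22 on high-fat diet and −2.79 ± 0.30 on chow (difference −0.95 ± 0.36, adjusted p = 1).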

How the data were processed

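Counts of 3′ tags (Lexogen QuantSeq FWD) per gene, not normalized, were deposited by the authors for gastrocnemius libraries. FastQC 0.11.4, STAR 2.6.0, HTSeq and edgeR 3.26.8 and the builds mm10 and GRCm38.p4 are named in the submitters' processing notes. Whether strand was used in counting is not stated there. The deposited normalized tables were not used.

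Here, all 19 libraries of batch 1 entered 1 fit (edgeR 4.0.16 in R 4.3.3: filterByExpr, TMM, robust quasi-likelihood test, Benjamini-Hochberg adjusted p under 0.05), tested on simulated data beforehand, and the 32 libraries of batch 2 entered another. CPM are counts divided by the filtered library size times its TMM factor, and their precision rests on 8.72 to 12.8 M counts per chow library. Each library is 1 animal. Intervals on ratios cover counting error only, since reads carry no molecular identifiers. Gene positions are from GENCODE M21.

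The genes, lists and comparisons were chosen with earlier results of these data known. Named were Arntl, the listed clock genes, the 15 highest and 15 lowest called fold changes at a mean log2 CPM of at least 2 (without predicted, Riken and mitochondrial genes), up to 5 genes of smallest p per other list, and, for the difference between diets, the 3 genes of smallest p and Sln. From the lists the text gives the called members and those that carry a count. A few listed genes are not reported here and were left out of the list counts. Thra, Mical2, Sdc4, Dnajb5 and Pkm and the comparisons of Dupd1, Rasd2, Odc1 and Mmp9 between diets were chosen after their values were seen. Alternatives were RLE scaling, no scaling, a filter on average log2 CPM of at least 1, no filter, DESeq2 1.42.0, no robust estimation, the chow libraries alone, an adjusted p under 0.01, a replicate block, and leaving out libraries.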

Additional observations from a re-analysis of the deposited data

Results flagged for a closer look

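Among the 4 chow controls, 1 library stood apart from the other 3 (by Dixon's criterion at the 95% level, which chance meets in about 1 of 20 groups) for 8 of 127 values examined. Groups of 3 knockouts were not examined. Control 2 was high for T cell markers (67.3 summed CPM, next highest 3.38), for B cell markers without Ighm (152, next 30.3) and for B cell markers without Ighm and Cd74 (79.3, next 9.04), and low for Stim1 (147 CPM, next lowest 179). Control 1 was high for Bhlhe40 (44.6 CPM, next 28.2) and Coq10b (7.85, next 5.93) and low for Slc2a3 (4.17, next 6.25). Control 3 was high for Six2 (19.7 CPM, next 11).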

How the results depend on the processing

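Of the 97 genes named as called on chow, 56 kept the call in all 16 alternatives and 39 lost it in at least 1. The other 2, Ciart and Fgfbp1, kept it in 15 and were not tested under the filter on average log2 CPM. The 490 calls on chow became 258 at an adjusted p under 0.01 and 313 with the chow libraries alone. They ranged from 293 to 502 with 1 library left out, the lowest without knockout 3 and the highest without control 2. The 0 calls for the difference between diets became 1 without scaling (Pak1), 8 without the count filter (Cilp, Cited2, Dupd1, Dusp1, Gm22748, Pak1, Rasd2 and Sesn1), 3 by DESeq2 and 0 to 3 with 1 library left out. The batch 2 count, 1820 with all libraries, lay between 1420 and 1805 with 1 library of that comparison left out. The difference in mitochondrial share stayed negative, from −3.89 to −0.95 points, with 1 library left out.

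No library number pairs animals across the groups: deviations of same-numbered animals from their group means correlated at −0.057, −0.29 and 0.17. With a replicate block 395 genes were called on chow and 1 for the difference between diets (Sln). Of the 39 named genes above, 19 lost the call under the block, each of which also lost it under another alternative. They were Akt1, Amd1, Amd2, Angptl4, Atp5a1, Atp5b, Bbc3, Cacnb1, Cry1, Dusp1, Jun, Ldha, Ndufa7, Pcx, Sdc4, Sms, Stim1, Xbp1 and Zbtb16. The block is left out of the gene-by-gene accounts of lost calls above.

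Direction reversed for uncalled genes only, and the cause was not tested. Without scaling Cry2 was at 0.048 and Lonrf3 at 0.070. Without control 2 and knockout 1 Cry2 was at 0.096. With 1 library left out the ranges were −0.16 to 0.18 for Cry2, −0.47 to 1.13 for Npas2, −0.64 to 0.48 for Lonrf3, −0.10 to 0.21 for Csnk1e and −0.36 to 0.10 for Cited2. Depth limits genes with few counts per library, such as Npas2, Lonrf3 and Ciart.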

Other observations

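Smad7 and Dusp1, chosen after their values were seen, were called on chow, and their values on high-fat diet are set beside those. Smad7 was at 0.75 ± 0.21 on chow and −0.41 ± 0.17 on high-fat diet in batch 1 (difference 1.16 ± 0.27, adjusted p = 0.31). Dusp1, a phosphatase that switches off MAP kinases, was at −0.83 ± 0.22 and 0.06 ± 0.16 (difference −0.89 ± 0.27, adjusted p = 0.87). In batch 2 on high-fat diet they were at −0.02 ± 0.15 and −0.38 ± 0.17. By edgeR's quasi-likelihood test neither difference between the diets passed, and without the count filter that of Dusp1 was called.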
